A study of Mus musculus with 4 samples.

Results

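The genes described here are those of synaptic vesicle release, taken by symbol from the authors' table: the synaptotagmins (Syt), syntaxins (Stx), Snap and Vamp genes, synapsins (Syn1 to Syn3), Sv2 genes, Rab3 genes, complexins (Cplx), vesicular glutamate transporters (Slc17a6 to Slc17a8), Syp and synaptogyrins (Syngr). The symbols matched 69 of 28168 loci, and after keeping the locus of higher mean level for the 5 symbols with several loci, 64 genes remained. RNA came from mature olfactory sensory neurons that had been purified by fluorescence-activated sorting from mouse olfactory epithelium. In the labels Nd1 is the name of a transgenic line with neurodegeneration, and the series title says that such mice express double-stranded RNA from the genome. Both Nd1 libraries came from Nd1+/-; OMP-IRES-tTA+/- mice, in which the transcriptional activator tTA is placed at Omp, the olfactory marker protein gene of mature neurons. Each control lacked one of these alleles, tTA in replicate 1 (Nd1+/-; OMP-IRES-tTA-/-) and Nd1 in replicate 2 (Nd1-/-; OMP-IRES-tTA+/-), so the controls are not of 1 genotype. All 4 libraries carried OMP-IRES-GFP+/-, and in both groups the mice were 212 days of age for replicate 1 and 87 days for replicate 2. How many mice entered a library is not stated.

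The table holds 1 pooled FPKM value per group, that is fragments scaled by transcript length and by library size, which allows levels to be compared between genes. No value per library, spread between replicates or read depth can therefore be given. Calls are the authors', at q under 0.05 from Cuffdiff, and rose and fell are written only of genes that passed. The error given with a log2 ratio is the standard error (SE) implied by the authors' test statistic, and an interval is the log2 ratio plus or minus 1.96 such errors. The p-values can rest on no more than 2 libraries per group, how the authors' model used the spread between them is not given in the sources used here, and nothing says that the libraries came from separate animals. In sorted cells, fewer cells of a type and less RNA per cell cannot be told apart.

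Transmitter release joins a vesicle to the plasma membrane of a nerve terminal. A vesicle SNARE (Vamp2) zippers with target membrane SNAREs (such as Stx1a and Snap25), complexins hold the assembled complex, and synaptotagmins trigger fusion when calcium enters. Rab3 GTPases and synapsins govern how vesicles gather and dock, and vesicular transporters fill them. Olfactory sensory neurons are glutamatergic and release transmitter in the glomeruli of the olfactory bulb, so the RNA measured here is that of the neuron's cell body in the epithelium.

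Promoters in RefSeq's table (build GRCm38.p6, 250 bases before to 50 after a gene's start) were matched to 49 of the 64 genes, with 67 starts, and to 10 of the 14 genes that passed. The following are shown because the synapsins form a family in which 1 member with a listed promoter fell and the other did not pass, while Stx2 and Rab3c rose, the latter the most, and hold matches. They were chosen after their values were seen. Capitals mark matches to 4 motifs searched on both strands: the Ebf palindrome core CCCNNGGG, the cAMP response element TGACGTCA, the left part of the RE1 element TTCAGCACC, and the interferon-stimulated core GAAANNGAA. The matches printed do not overlap each other. Syn1 lies at chrX:20920869-20921168 (minus strand), Syn2 at chr6:115134652-115134951 (plus strand, the first of 2 starts), Stx2 at chr5:129008523-129008822 (minus strand, the first of 2 starts) and Rab3c at chr13:110280157-110280456 (minus strand).
Syn1: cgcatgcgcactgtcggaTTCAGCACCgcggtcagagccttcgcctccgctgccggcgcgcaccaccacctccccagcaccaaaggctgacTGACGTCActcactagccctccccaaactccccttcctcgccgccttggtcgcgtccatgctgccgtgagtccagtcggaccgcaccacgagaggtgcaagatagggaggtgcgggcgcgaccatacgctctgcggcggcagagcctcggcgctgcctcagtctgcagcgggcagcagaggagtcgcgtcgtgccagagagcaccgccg
Syn2: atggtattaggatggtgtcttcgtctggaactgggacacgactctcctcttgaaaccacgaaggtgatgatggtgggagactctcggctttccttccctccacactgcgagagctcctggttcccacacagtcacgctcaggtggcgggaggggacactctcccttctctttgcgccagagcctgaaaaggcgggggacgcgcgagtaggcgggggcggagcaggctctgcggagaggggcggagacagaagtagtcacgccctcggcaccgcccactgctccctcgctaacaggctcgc
Stx2: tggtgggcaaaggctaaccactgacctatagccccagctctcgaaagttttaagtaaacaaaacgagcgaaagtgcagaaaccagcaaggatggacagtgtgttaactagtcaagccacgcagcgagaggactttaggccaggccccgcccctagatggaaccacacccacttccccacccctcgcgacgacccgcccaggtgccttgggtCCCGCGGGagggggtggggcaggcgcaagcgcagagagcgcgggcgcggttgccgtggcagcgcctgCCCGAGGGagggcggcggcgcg
Rab3c: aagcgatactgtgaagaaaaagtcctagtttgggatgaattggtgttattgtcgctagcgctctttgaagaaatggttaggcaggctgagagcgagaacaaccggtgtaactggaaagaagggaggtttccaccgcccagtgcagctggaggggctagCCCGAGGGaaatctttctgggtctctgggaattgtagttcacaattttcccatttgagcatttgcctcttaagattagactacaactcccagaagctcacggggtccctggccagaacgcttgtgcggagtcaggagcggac
The Syn1 window holds the RE1 part, 232 bases before the start, and the cAMP response element, 159 bases before it. The first window of Syn2 holds none of the 4 motifs. In the first window of Stx2 an Ebf core begins 39 bases before the start and another 28 bases after it. The second window of Stx2 holds none of the 4 motifs. In Rab3c an Ebf core begins 92 bases before the start. Over all 67 windows the Ebf core was found in 13 (19.4%, against 13.7% of all 32851 promoters of the same length). The fixed letters of this core are all G or C, and the median GC content was 60.3% in the 67 windows and 52.7% in all promoters, whose part in the difference was not tested. The cAMP response element and the RE1 part were each found only in that of Syn1 (1.49%, against 1.79% and 0.371% of all promoters). The interferon-stimulated core was found in 8 windows (11.9%, against 8.56%), among them the second window of Syn2. Of the genes with the Ebf core, Rab3b, Rab3c and Stx2 rose. The core was also found in Cplx2, Stx1a, Stx4a, Stx7, Syt14, Vamp4 and Vamp8, which did not pass. Slc17a8, Stx11 and Vamp5 held it too and were not tested. All these matches describe letters in a window and are not binding sites.

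For most release genes no difference passed the test. Of the 5 most abundant in control, Snap25 fell, while Syp, Vamp2, Syt11 and Syt1 did not pass. A minority changed, more of them upward than downward and mostly by less than 2-fold. Of the 64 genes, 52 were tested, 11 were not tested and 1 (Syt9) had a failed test in the authors' deposited table. Of those tested, 14 passed (26.9%), against 34.4% of all 14841 tested loci and 30.3% of the 13802 that are not odorant receptors. The share of the release genes that passed was near the background, and the difference was not tested. By direction, 10 rose (19.2%, against 15.1% of all loci and 16.2% of those that are not odorant receptors) and 4 fell (7.69%, against 19.2% and 14.1%). With both columns scaled to the same sum over loci that are not odorant receptors and calls recomputed, 14 were higher and 2 lower. Under that scaling 19.5% of all loci were higher and 14.8% lower, and 21.0% and 9.46% of those that are not odorant receptors. With ratios centred on the median locus 12 were higher and 2 lower, where 17.8% of all loci were higher and 16.0% lower, and 19.1% and 10.7% of those that are not odorant receptors. The background thus moved upward together with the release genes. Under both rescalings, Snap25 and Syt3 no longer passed while Snap47 and Sv2b did, and with equal sums Stx1a and Syt7 passed as higher too. The genes that rose were Rab3c, Syt13, Syt5, Syngr3, Sv2a, Sv2c, Rab3b, Stx16, Stx2 and Snap91, and those that fell were Cplx1, Syn2, Syt3 and Snap25. Of these, Rab3c, Syt13 and Syt5 rose by at least 2-fold and Cplx1 fell by at least 2-fold, 4 of 52 genes tested, against 16.5% of all loci and 11.3% of those that are not odorant receptors.

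**Figure D1:**
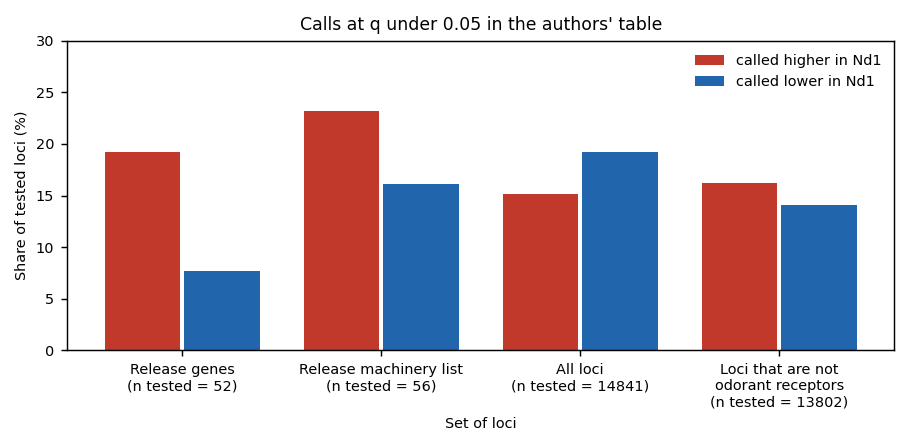
Share of tested loci called higher (red) or lower (blue) in Nd1 at q under 0.05, in percent, for the release genes, the list of release machinery partners, all loci and loci that are not odorant receptors. Release genes stand at 19.2% higher and 7.69% lower, all loci at 15.1% and 19.2%.

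The median log2 ratio of the 50 tested genes whose mean reached 0.5 FPKM was -0.02 on the log2(FPKM + 1) scale, against -0.06 over all 13727 such loci, and under 3 rescalings of the columns it lay between 0.040 and 0.071. The FPKM of all 64 genes summed to 2688 in control and 2698 in Nd1. Over all loci the sums were 391743 in control and 357895 in Nd1. How alike the sums of the release genes are therefore depends on the scaling of the columns. Of the 38 genes that did not pass, 27 (71.1%) had an interval within 0.5 on the log2 scale on either side of 0, against 47.2% of all tested loci that did not pass and 55.9% of those with a mean of at least 1 FPKM that are not odorant receptors. The width of an interval depends on the level, and the levels of the release genes were not matched in these comparisons.

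**Figure D2:**
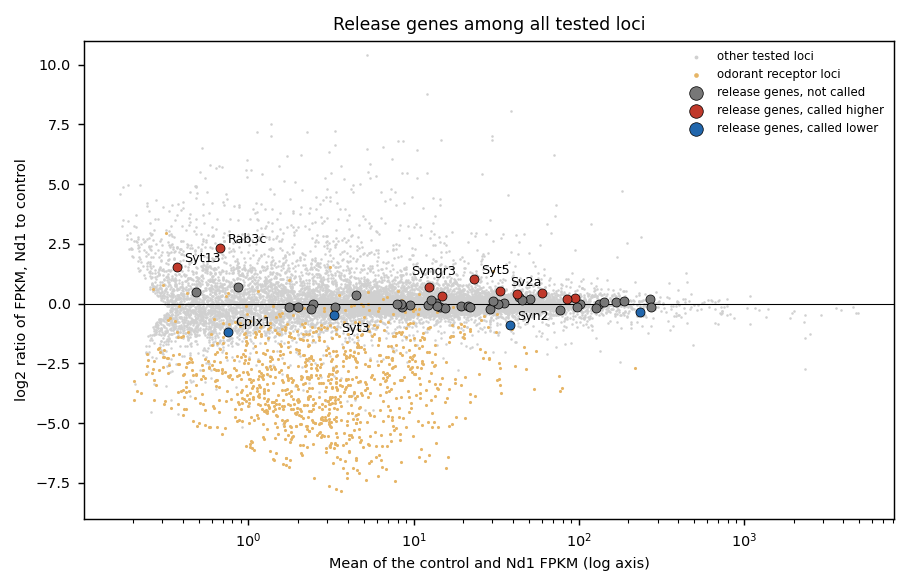
Log2 ratio of FPKM in Nd1 to control against the mean FPKM of the groups (log axis) for 14704 tested loci above 0 in both groups. The release genes lie mostly near 0 at high levels, with Rab3c, Syt13 and Syt5 above and Cplx1 and Syn2 below, while odorant receptor loci (orange) lie mostly below 0.

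Levels spanned a wide range. The most abundant release gene in control was Syp, encoding the vesicle protein synaptophysin, at 288 FPKM, the 118th highest of 28168 loci. Snap25 (265 FPKM), Vamp2 (254 FPKM), Syt11 (181 FPKM) and Syt1 (162 FPKM) followed. In Nd1 the highest were Vamp2 (289 FPKM), Syp (258 FPKM) and Snap25 (208 FPKM). At the other end 13 genes stayed under 1 FPKM in both groups, between 0 and 0.40 FPKM in control and between 0 and 0.56 FPKM in Nd1. These were Slc17a7, Slc17a8, Syt2, Syt8, Syt12, Syt13, Syt15, Syt17, Stx11, Vamp5, Cplx3, Cplx4 and Syngr4, of which only Syt13 and Syngr4 were tested. Cplx4 was listed at 0 in both groups, and Cplx3 and Syt8 were listed at 0 in control.

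**Figure D3:**
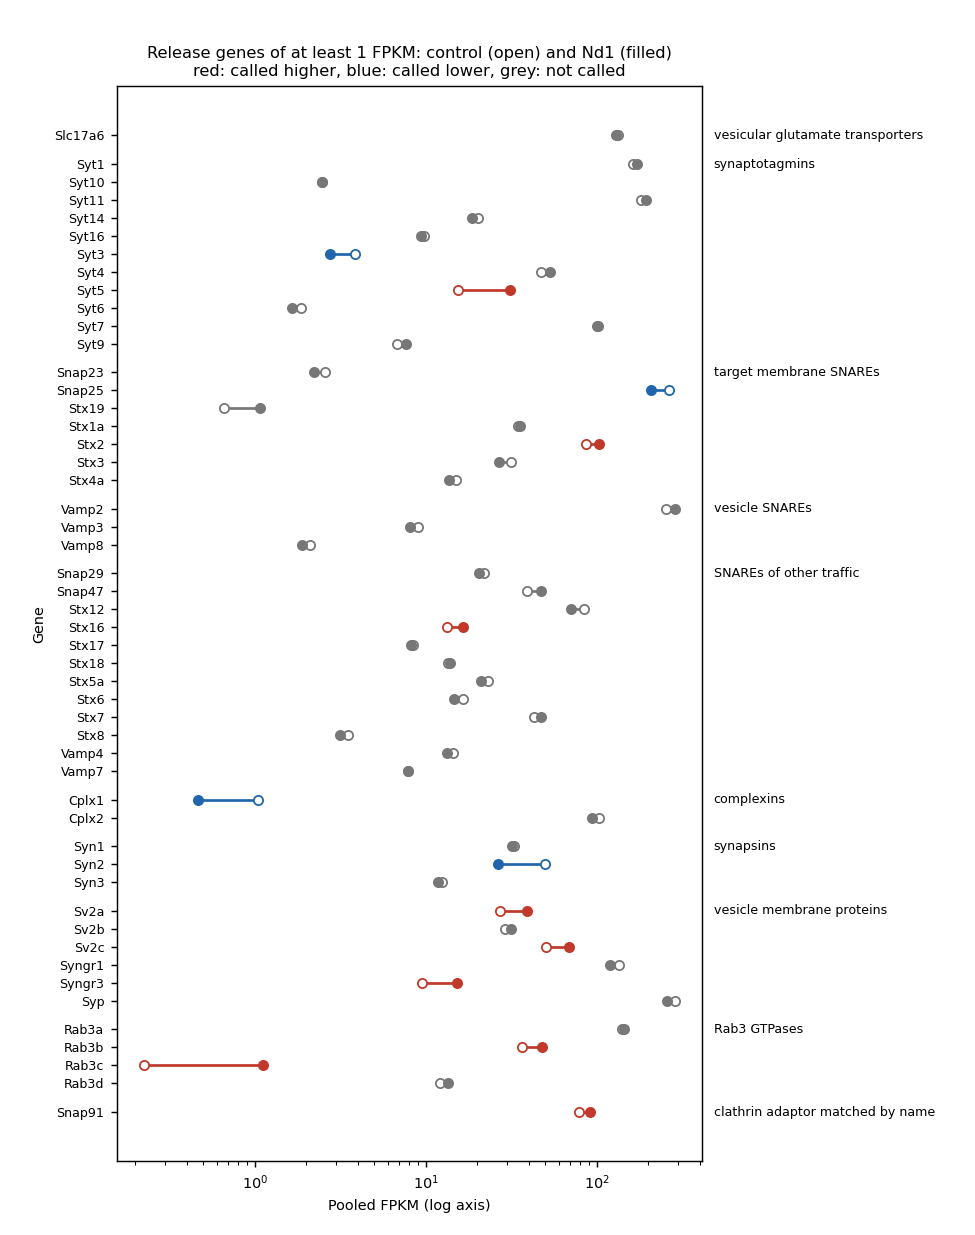
Pooled FPKM on a log axis in control (open) and Nd1 (filled) for 50 release genes of at least 1 FPKM in a group, ordered by role. The points of most genes nearly coincide, and the widest gap is that of Rab3c, from 0.22 to 1.12 FPKM.

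Among the vesicular glutamate transporters, the form that fills vesicles in these neurons, Slc17a6, stood at 134 FPKM in control and 130.4 FPKM in Nd1. Its log2 ratio of -0.04 (interval -0.29 to 0.22) did not pass (q = 0.863 in the authors' deposited table). It made up 99.9% of the summed FPKM of the 3 transporters in control and 99.8% in Nd1. The forms of other neurons stayed near 0, Slc17a7 at 0.097 and 0.30 FPKM and Slc17a8 at 0.016 and 0.015 FPKM, and neither was tested.

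Synaptotagmins are proteins with paired C2 domains, some of which bind calcium. Of 17 genes 11 were tested, of which Syt5 and Syt13 rose and Syt3 fell. Thus 27.3% passed, against 34.4% of all loci and 30.3% of those that are not odorant receptors. Syt5, a calcium-binding form also found on dense-core vesicles (mm9 chromosome 7, 4491367 to 4498169), stood at 15.3 FPKM in control and 31.3 FPKM in Nd1. That is a 2.04-fold rise, with a log2 ratio of 1.03 (SE 0.16, q = 2.25e-09 in the authors' deposited table). Its share of the summed synaptotagmin FPKM was 2.77% in control and 5.26% in Nd1. Syt13, a form without calcium binding (mm9 chromosome 2, 92755258 to 92796208), stood at 0.19 and 0.54 FPKM, a log2 ratio of 1.53 (SE 0.40, q = 0.000726 in the authors' deposited table). Both of its values are low, and no spread is known for them. Syt3, a calcium-binding form (mm9 chromosome 7, 51634257 to 51655400), stood at 3.87 and 2.74 FPKM, a log2 ratio of -0.50 (SE 0.20, q = 0.0347 in the authors' deposited table).

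The synaptotagmins that dominate in these cells did not pass. Syt1, the sensor of fast synchronous release, stood at 162 and 172 FPKM, with an interval of the log2 ratio from -0.14 to 0.31. Syt7, a sensor of slower release, stood at 102 and 100.8 FPKM, and its interval was the narrowest of all tested release genes, from -0.07 to 0.04. It passed as higher in the recomputed calls with equal sums of loci that are not odorant receptors. Syt11, which does not bind calcium, stood at 181 and 194 FPKM (interval -0.18 to 0.39). Syt4 stood at 47.5 and 53.5 FPKM, Syt14 at 20.1 and 18.6, Syt16 at 9.75 and 9.39, Syt10 at 2.47 in both groups, and Syt6 at 1.85 and 1.66 FPKM. Syt9, another fast calcium sensor, stood at 6.80 and 7.63 FPKM, but its test failed. Syt2, the third fast sensor, was at 0.010 and 0.068 FPKM and was not tested.

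Of the 9 target membrane SNAREs 8 were tested, of which Stx2 rose and Snap25 fell. Thus 25% passed, against 34.4% of all loci and 30.3% of those that are not odorant receptors. Snap25, which contributes a pair of helices to the neuronal SNARE complex (mm9 chromosome 2, 136539186 to 136608164), stood at 265 FPKM in control and 208 FPKM in Nd1. Its log2 ratio was -0.35 (SE 0.13, q = 0.0197 in the authors' deposited table), a 1.28-fold fall. With calls recomputed after rescaling, as given above, it did not pass. Stx2, a plasma membrane syntaxin also found in epithelia (mm9 chromosome 5, 129490436 to 129514439), stood at 86.5 and 103 FPKM, a log2 ratio of 0.25 (SE 0.06, q = 4.84e-05 in the authors' deposited table). Stx2 was the most abundant syntaxin of this group, above Stx1a.

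The neuronal syntaxin Stx1a stood at 34.7 and 35.6 FPKM, with an interval of the log2 ratio from -0.07 to 0.15. It did not pass, but passed as higher in the recomputed calls with equal sums. Stx3, a syntaxin of ribbon synapses and apical membranes, stood at 31.4 and 26.7 FPKM and just missed the threshold (q = 0.0586 in the authors' deposited table). Its locus is shared with the odorant receptor Olfr1417, which fell from 13.0 to 2.06 FPKM, and the table does not say whether reads were counted by strand. Stx4a stood at 15.1 and 13.6 FPKM, Snap23, the form of non-neuronal cells, at 2.58 and 2.23 FPKM, and Stx19 at 0.66 and 1.07 FPKM. Stx11, a syntaxin of leukocytes, was at 0.10 and 0.049 FPKM and was not tested.

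Vesicle SNAREs did not pass in any of the 3 genes, while 34.4% of all loci passed and 30.3% of those that are not odorant receptors. With so few genes the difference was not tested. Vamp2, the synaptic form, stood at 254 and 289 FPKM, a log2 ratio of 0.18 (interval -0.07 to 0.43). It made up 95.8% of the summed FPKM of Vamp2, Vamp3 and Vamp8 in control and 96.7% in Nd1. Vamp3, of constitutive recycling, stood at 9.01 and 8.07 FPKM and Vamp8, of secretory granules and late endosomes, at 2.12 and 1.89 FPKM. The other synaptic form, Vamp1, is listed only as a locus joined with E130112N10Rik and so lay outside the rule. That joined locus rose from 53.4 to 68.6 FPKM (q = 3.51e-05 in the authors' deposited table), and the part of each gene cannot be told. The joined locus of Syngr2 and Afmid stood at 5.93 and 4.57 FPKM and did not pass. Both joined loci were named after their values were seen.

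The name pattern also takes in SNAREs that work in the Golgi, endosomes and autophagosomes rather than at the terminal. Of 13 such genes 12 were tested and 1 passed. The share, 8.33%, stands against 34.4% of all loci and 30.3% of those that are not odorant receptors, and the difference was not tested. Stx16, a syntaxin of the trans-Golgi network (mm9 chromosome 2, 173901822 to 173925272), rose to 16.5 FPKM in Nd1 from 13.4 in control, a log2 ratio of 0.30 (SE 0.08, q = 0.000466 in the authors' deposited table). Stx12, of early endosomes, was the most abundant, at 84.6 and 70.3 FPKM (q = 0.0787), and Snap47 stood at 39.2 and 47.3 FPKM (q = 0.0706), so that neither passed in the authors' deposited table. Snap47 passed as higher after either rescaling. The late endosomal Stx7 stood at 43.1 and 47.5 FPKM and Stx8 at 3.50 and 3.16 FPKM. Stx5a, which joins endoplasmic reticulum and Golgi traffic, stood at 23.2 and 20.9 FPKM and Snap29 at 21.9 and 20.5 FPKM. Of the rest, Stx6 stood at 16.5 and 14.6 FPKM, Vamp4 at 14.4 and 13.3, Stx18 at 13.5 and 13.9, the autophagosomal Stx17 at 8.41 and 8.25, and the lysosomal Vamp7 at 7.91 and 7.86 FPKM. Vamp5 was at 0.13 and 0.039 FPKM and was not tested.

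Complexins bind the assembled SNARE complex and set when it may fuse. Cplx2 was the form of these cells, at 103 FPKM in control and 93.4 FPKM in Nd1, with 99.0% and 99.5% of the summed complexin FPKM, and did not pass (interval of the log2 ratio -0.39 to 0.12). Cplx1 (mm9 chromosome 5, 108947573 to 108979046) fell 2.25-fold from a low level, from 1.04 to 0.46 FPKM. Its log2 ratio was -1.17 (SE 0.36, q = 0.00413 in the authors' deposited table). The fall thus concerns a gene with 1.01% of the summed complexin FPKM in control. The retinal forms Cplx3 and Cplx4 were at or near 0 in both groups.

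Synapsins tether vesicles to each other and to actin in the reserve pool. Syn2 (mm9 chromosome 6, 115084920 to 115232644) stood at 49.8 FPKM in control and 26.4 FPKM in Nd1, the widest change among release genes above 20 FPKM in control. Its log2 ratio was -0.91 (SE 0.09, interval -1.10 to -0.73), with q listed as 0 in the authors' deposited table. Syn1 stood at 32.7 and 31.9 FPKM (interval -0.20 to 0.13) and Syn3 at 12.5 and 11.8 FPKM (interval -0.31 to 0.16), and neither passed. Syn2 was the most abundant synapsin in control, with 52.5% of the summed synapsin FPKM, and held 37.7% in Nd1, where Syn1 held 45.5%. The difference between the responses of Syn2 and Syn1 was not tested. Synapsin genes share their loci with genes of tissue inhibitors of metalloproteinases, which lie within them. Timp4, at the Syn2 locus, stood at 0.65 and 0.33 FPKM and did not pass (q = 0.165), and Timp3, at the Syn3 locus, fell from 1.81 to 0.90 FPKM (q = 0.000707), in the authors' deposited table. The Syn1 locus holds Timp1 (0.47 and 0.45 FPKM). It also overlaps Araf (42.9 and 41.6 FPKM, above Syn1), Elk1 (9.92 and 8.39 FPKM) and Cfp (3.70 and 2.46 FPKM). None of these genes at the Syn1 locus passed. Whether reads of such overlapping genes were separated by strand is not given in the sources used here.

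Vesicle membrane proteins gave 3 rises (42.9%) and no fall among 7 tested genes. Of all loci 15.1% were called higher and 19.2% lower, and 16.2% and 14.1% of those that are not odorant receptors. The list is short, and the difference was not tested. Sv2a, the vesicle glycoprotein that is the target of levetiracetam (mm9 chromosome 3, 95985150 to 95999103), rose to 39.1 FPKM in Nd1 from 27.3 in control, a log2 ratio of 0.52 (SE 0.13, q = 0.000199 in the authors' deposited table). Sv2c, its relative and a botulinum toxin receptor (mm9 chromosome 13, 96729398 to 96902532), rose to 68.6 FPKM in Nd1 from 50.7 in control, a log2 ratio of 0.44 (SE 0.11, q = 0.000378 in the authors' deposited table). The third relative, Sv2b, stood at 29.1 and 31.7 FPKM and did not pass, with an interval from -0.03 to 0.27. It passed as higher after either rescaling. Syngr3, a synaptogyrin of neuronal vesicles (mm9 chromosome 17, 24822037 to 24826894), rose 1.60-fold, from 9.57 to 15.3 FPKM (log2 ratio 0.68, SE 0.19, q = 0.00182 in the authors' deposited table). The more abundant Syngr1 stood at 135 and 119 FPKM (interval -0.44 to 0.08) and Syp at 288 and 258 FPKM (interval -0.43 to 0.11), and neither passed. Syngr4 stood at 0.40 and 0.56 FPKM.

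Rab3 GTPases mark docked vesicles and recruit the active zone protein RIM. All 4 genes were tested and 2 rose. That is 50% of few genes, against 15.1% of all loci and 16.2% of those that are not odorant receptors. The difference was not tested. Rab3c (mm9 chromosome 13, 110844396 to 111071204) stood at 0.22 FPKM in control and 1.12 FPKM in Nd1, a 5.01-fold rise and the widest of any release gene. Its log2 ratio was 2.32 (SE 0.31, q = 4.17e-13 in the authors' deposited table), and on the log2(FPKM + 1) scale 0.79. Rab3b (mm9 chromosome 4, 108551675 to 108615929) rose 1.32-fold, from 36.4 to 48.1 FPKM (log2 ratio 0.40, SE 0.12, q = 0.00424 in the authors' deposited table). The main form, Rab3a, stood at 139.8 and 144 FPKM, with an interval from -0.19 to 0.28, and held 74.2% of the summed Rab3 FPKM in control and 69.7% in Nd1. Rab3d, the form of exocrine granules, stood at 12.1 and 13.6 FPKM. Neither passed.

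Snap91 is no SNARE: it encodes a clathrin assembly protein of synaptic vesicle endocytosis and was taken in by its name. It rose from 78.8 to 91.2 FPKM (mm9 chromosome 9, 86659239 to 86775489), with a log2 ratio of 0.21 (SE 0.05, q = 0.000563 in the authors' deposited table). This was the smallest change among those that passed. Stx19, with a log2 ratio of 0.70, did not pass, its SE being 0.40.

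**Figure D4:**
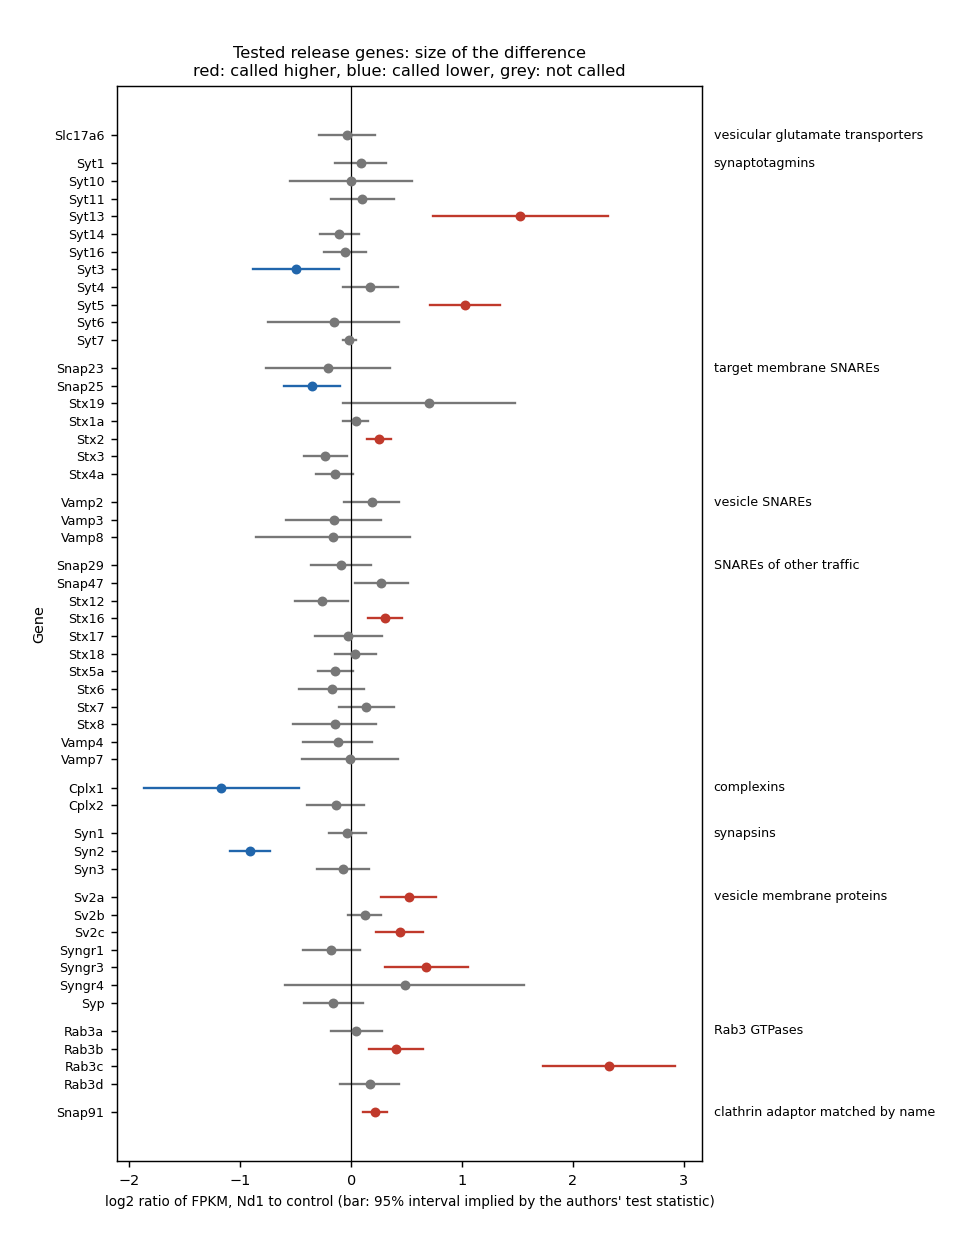
Log2 ratio of FPKM in Nd1 to control for 51 tested release genes, by role, with the 95% interval implied by the authors' test statistic. The interval of Syt7 is the narrowest and crosses 0, while those of Rab3c, Syt13 and Syt5 lie to the right and those of Cplx1 and Syn2 to the left.

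The partners of these proteins, from a list of 81 genes of docking, priming, the active zone and vesicle recycling, changed in both directions. Of the 79 found, 56 were tested, of which 13 rose (23.2%) and 9 fell (16.1%) in the authors' deposited table. Of all loci 15.1% were called higher and 19.2% lower, and 16.2% and 14.1% of those that are not odorant receptors. In either direction 39.3% passed, against 34.4% and 30.3%, and the difference was not tested. After scaling to the sum of loci that are not odorant receptors, 19 were higher and 5 lower, and after centring on the median locus, 16 and 8, while all loci turned from more lower to more higher calls, as given above (2897 higher and 2200 lower with equal sums, 2646 and 2377 when centred). The widest rise was that of Stxbp6, encoding the syntaxin-binding protein amisyn, from 0.29 to 5.15 FPKM, a log2 ratio of 4.15 (SE 0.33). Mctp2, a C2 domain protein, rose from 0.62 to 4.60 FPKM and the active zone gene Erc2 from 0.47 to 1.15 FPKM. Rims3, a short RIM protein, rose from 37.8 to 85.3 FPKM, a log2 ratio of 1.18 (SE 0.11). The priming factor Unc13c rose from 11.2 to 22.0 FPKM. Rab3gap2, a subunit of the complex that stimulates GTP hydrolysis by Rab3, rose from 24.0 to 44.9 FPKM. Bin1, a membrane-bending protein, rose from 20.2 to 32.6 FPKM and the vesicle protein gene Tprgl from 96.2 to 151 FPKM.

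Of the partners that fell, Sytl1, a synaptotagmin-like effector of Rab27, went from 33.6 to 15.2 FPKM, a log2 ratio of -1.14 (SE 0.07). Stxbp2, the syntaxin-binding protein of granule secretion, fell from 1.59 to 0.79 FPKM. Smaller falls were those of the active zone genes Rims1 (9.54 to 7.12 FPKM) and Erc1 (15.0 to 12.1 FPKM), the syntaxin-binding Stxbp3a (7.90 to 6.34 FPKM), the endocytic GTPase Dnm1 (233 to 200.0 FPKM) and the liprin gene Ppfia1 (24.1 to 20.7 FPKM). Another 2 core factors outside the naming rule, chosen after their values were seen, did not pass: Nsf, which takes SNARE complexes apart, at 52.0 and 54.9 FPKM, and the priming factor Unc13a at 15.4 and 13.2 FPKM. Other partners outside the rule, picked in the same way, did pass. Unc13b rose from 19.4 to 23.9 FPKM and Pclo from 18.6 to 25.9 FPKM, while Dnm3 fell from 0.70 to 0.28 FPKM. Of the transporters of other transmitters, Slc32a1 and Slc18a3 were listed at 0 in both groups, Slc18a1 stood at 0.077 and 0.26 FPKM and was not tested, and Slc18a2 stood at 1.03 and 0.87 FPKM and did not pass (q = 0.608 in the authors' deposited table).

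**Figure D5:**
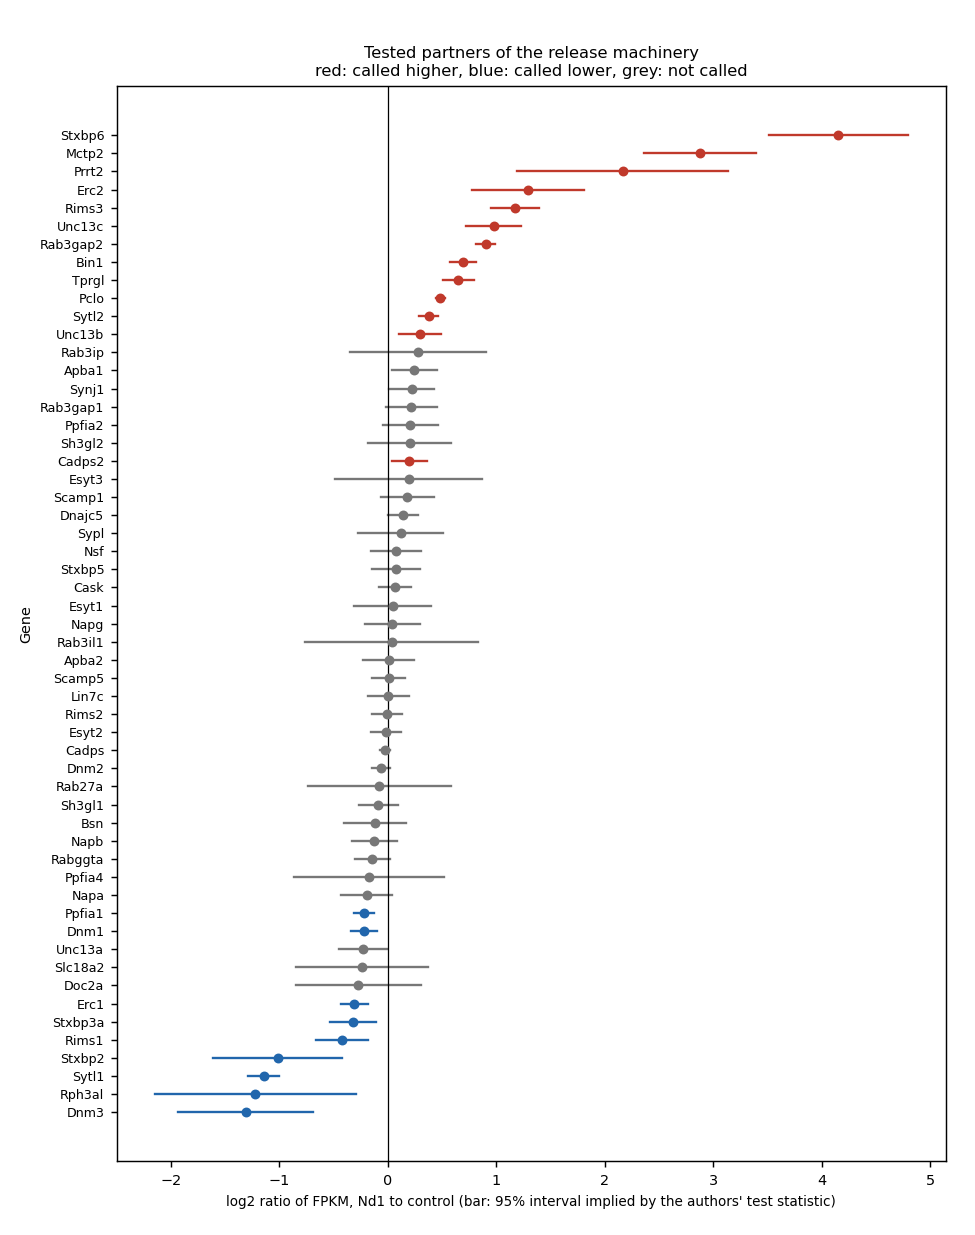
Log2 ratio of FPKM in Nd1 to control for 55 tested partners of the release machinery, ordered by size, with the 95% interval implied by the authors' test statistic. Stxbp6 (4.15) and Mctp2 (2.88) stand apart at the top, and Sytl1 (-1.14) is among the 9 that fell.

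Markers of neuronal maturity differed between the groups. Beside the marker counts that follow, 15.1% of all tested loci were called higher and 19.2% lower. Among loci that are not odorant receptors these shares were 16.2% and 14.1%. The marker lists are short, and their differences from these shares were not tested. Of 10 markers of mature olfactory sensory neurons, 8 of 9 tested fell and none rose, with a summed FPKM of 17391 in control and 7278 in Nd1. Omp itself, the defining marker of the sorted cells, was present in both, at 4087 and 605 FPKM. Both Nd1 libraries carried tTA at Omp, but of the controls only replicate 2 did. The part of this genotype in the level of Omp was not tested. All 8 markers of immature olfactory sensory neurons were tested and 7 rose, with sums of 417 and 787 FPKM. The falls of Syn2 and Snap25 and the rises of Rab3c, Syt5, Syt13 and Stxbp6 thus stand beside these shifts, and the part of the shifts in them was not tested. Among markers of other cells, those that fell were of neutrophils in 6 of 6 tested (sums of 30.6 and 5.46 FPKM), gland and respiratory secretory cells in 6 of 8 (212 and 84.6 FPKM), sustentacular cells in 3 of 7 (117 and 84.9 FPKM), microvillar and tuft-like cells in 3 of 5 (68.8 and 39.2 FPKM) and basal and proliferating cells in 3 of 4 (13.2 and 7.30 FPKM). Rises in these lists were those of Lcn11 and Obp1a, both listed at 0 in control, and Pou2f3. Of glial markers none of 5 passed (sums of 4.60 and 4.07 FPKM). Of 3 endothelial markers Pecam1 rose, from 1.49 to 2.68 FPKM. Kdr (0.039 and 0.034 FPKM) and Cdh5 (0.034 and 0.039 FPKM) were not tested. Of 5 leukocyte markers found of 6, only Ptprc was tested, and it fell from 0.49 to 0.047 FPKM. Cd3e was listed at 0 in control.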

How the data were processed

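Polyadenylated RNA of sorted mature olfactory sensory neurons was sequenced after Illumina TruSeq preparation, per the labels' protocols, in 2 control and 2 Nd1 libraries. Bowtie, Cuffdiff 1.3.0 and mm9 are named in the submitters' processing notes, without annotation or options. The authors deposited a single FPKM value per group, with a log2 fold change, a test statistic, a p-value and a q-value for each locus. Columns of single libraries used numbered 0, so the planned limma test was not possible and no test of replicates was run. Depth per library is unknown.

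Of 28168 loci, 14841 were tested, 12711 were not and 616 failed. The deposited p-value equals the two-sided normal tail of the deposited statistic within 1% (or 1e-14) in 100.0% of 14704 tested loci above 0 in both groups. The SE of a log2 ratio was therefore taken as the ratio divided by the statistic. What the authors' model put into that error is not stated. For calls after rescaling, p-values were recomputed from the shifted ratio and this SE and adjusted by Benjamini-Hochberg over all tested loci. The arithmetic of the SE, interval and calls was checked on simulated data with normal errors of known size. Such a check cannot show whether the authors' error covers the spread between libraries. Each locus is given on mm9 as the table lists it, with its start raised by 1, and need not end where the gene does. Promoters are on another build (GRCm38.p6) and were not joined with them by position. Odorant receptor loci are those whose symbol begins with Olfr.

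The 64 genes and the lists of partners and markers were chosen with earlier results of these data known. Named are all release genes of at least 1 FPKM in a group or called, and up to 8 called partners of at least 1 FPKM in each direction, except that 1 release gene and 1 partner are counted but not reported here by name. Medians use tested genes of a mean of at least 0.5 FPKM and a pseudocount of 1 FPKM, which understates changes of low genes. Alternatives were a q threshold of 0.01, a minimum change of 1.5-fold, a pseudocount of 0.1 FPKM, other filters and rescaled columns. Python 3.11.15, pandas 2.3.3 and scipy 1.17.1 were used.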

Additional observations from a re-analysis of the deposited data

How the results depend on the processing

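No paired analysis was possible because the table gives no value per library, and for the same reason no replicate could be left out. The counts of the 52 tested release genes that passed, 10 higher and 4 lower, were 10 and 2 at a q threshold of 0.01. At that threshold 12.2% of all loci were higher and 14.9% lower, and 13.1% and 9.96% of those that are not odorant receptors. With q under 0.05 and a change of at least 1.5-fold, the counts were 4 and 2. All loci then stood at 10.6% and 12.5%, and those that are not odorant receptors at 11.3% and 6.84%. Calls were also recomputed from recentred ratios, an alternative added after seeing the data. The counts of release genes were then 12 and 2 around the median locus and 14 and 2 with equal sums of loci that are not odorant receptors. All loci moved from 2246 higher and 2856 lower to 2646 and 2377, and to 2897 and 2200. The partners that passed numbered 13 higher and 9 lower, and 9 and 4 with a change of at least 1.5-fold. The shares of all loci at 1.5-fold are those given above. With equal sums the partners numbered 19 and 5, where 19.5% of all loci were higher and 14.8% lower. For loci that are not odorant receptors these shares were 21.0% and 9.46%. The median log2 ratio of release genes, -0.02, turned to 0.040 when centred, 0.051 after quantile normalization and 0.071 with equal sums, while the median of all loci stood at 0, 0.0051 and 0.031. All 14 called release genes kept the sign of their log2 ratio under the 4 alternatives of pseudocount and scaling. A change of pseudocount cannot turn a sign. The shifts by centring (0.060) and by equal sums (at most 0.104) were below the smallest called change, 0.21 for Snap91. Under these settings the signs could therefore not change, and their stability is no support for the calls. Snap25 and Syt3 lost their calls under both recomputed rescalings. Depth per library is unknown, so it cannot be said how far low genes such as Rab3c, Syt13 and Cplx1 are limited by counting.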
